A study of Mus musculus with 19 samples.

Results

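The cytosolic ribosomal protein genes were taken as the protein-coding genes of the mm10 annotation whose symbol is Rpl or Rps followed by a digit, or Rpsa, Rplp0, Rplp1 or Rplp2, without the Rps6k kinases, Rps19bp1 and pseudogenes. This gave 88 genes of the 21000 protein-coding genes with a curated RefSeq transcript. Of these, 77 encode the canonical proteins of the cytosolic ribosome, with 43 of the large subunit, 31 of the small subunit and 3 of the P-stalk. The other 11 are paralogues and retrogenes, namely Rpl3l, Rpl7l1, Rpl10l, Rpl22l1, Rpl32l, Rpl36al, Rpl37rt, Rpl39l, Rps23rg1, Rps27l and Rps27rt.

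The libraries were SOX3 ChIP-seq of whole mouse testis at postnatal day 7 (P7), in 2 replicates, with a pair of SOX3 ChIP-nexus lists from the same tissue. SOX3 is an HMG-box transcription factor that the study describes in undifferentiated spermatogonia (uSPG), and the ChIP was done with SOX3 antibodies from SCBT (#sc-101155) and EMD Millipore (#AB5772). The methods state that seminiferous tubules of several mice were used for the transcription factor ChIP-seq, so each list is from pooled animals and from all cells of the tubule, of which uSPG are a part. The study states that its mice were of the C57BL/6J background. The labels name no genotype and no SOX3 ChIP from tissue that lacks SOX3, and all libraries with a file form 1 untreated group.

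Ribosomal proteins are made in all cells, and their genes are among the most highly transcribed of the genome. Their mRNAs begin with an unbroken run of pyrimidines, the 5′ terminal oligopyrimidine (TOP) tract, through which mTOR signalling sets their translation. Many of them carry small nucleolar RNA (snoRNA) genes in their introns, and most have left processed pseudogenes in the genome that copy the mRNA without its promoter.

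The peak lists held 58351 peaks in replicate 1 and 38832 in replicate 2. Each peak had a q score (the false discovery rate of the peak caller on a negative log scale, so that higher is stronger), a log2 ratio of ChIP over input and a width in bp. A promoter peak was a peak that reached within 2 kb of an annotated transcription start site (TSS), and where a gene had several the one with the highest q score was used. The lowest q scores were 30.0003 and 30.0289, so a gene without a promoter peak is one with no peak above about 30. The lists hold no read counts, so no interval from depth was computed. By the read numbers that the study lists, replicate 2, which has the shorter peak list, was the more deeply sequenced. With 2 replicates of 1 group there was no test over samples, so counts and medians are given as descriptions beside the same values of the other 20912 protein-coding genes.

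Cell type markers of the P7 testis were looked up as a check of the tissue. All 6 germ cell genes (Ddx4, Dazl, Zbtb16, Sall4, Gfra1 and Kit), all 4 Sertoli cell genes (Amh, Sox9, Wt1 and Gata4) and both peritubular cell genes (Acta2 and Myh11) had promoter peaks that overlapped between the replicates. Of the 4 Leydig cell genes, Star and Cyp17a1 had overlapping peaks, Insl3 had a peak of q score 35.7 in replicate 1 and none in replicate 2, and Hsd3b1 had none. Among the other protein-coding genes 54.9% had overlapping promoter peaks, so the counts alone tell little of the tissue. Median q scores were 130 and 55.1 at the germ cell genes and 325 and 109 at the Sertoli cell genes. They were 151 and 64.0 at the peritubular and 44.8 and 57.1 at the bound Leydig cell genes, against 169 and 80.0 at other bound genes. A peak at a marker promoter does not tell which cells held SOX3 there, and the part of each cell type in the peaks at ribosomal protein genes was not tested.

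Promoter sequences were matched by symbol for 68 of the 88 genes, 57 canonical and all 11 paralogues and retrogenes, in RefSeq for GRCm38.p6. The following 7 are the genes with the longest pyrimidine runs from the annotated start. Each is printed 5′ to 3′ on the strand of the gene, with 60 bases before the start and the first 12 transcribed bases, and capitals mark the unbroken run of C and T that holds the first transcribed base.
Rpl27a (chr7:109519135-109519206, plus strand): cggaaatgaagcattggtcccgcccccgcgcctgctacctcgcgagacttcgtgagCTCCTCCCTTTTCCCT
Rpl15 (chr14:18270975-18271046, minus strand): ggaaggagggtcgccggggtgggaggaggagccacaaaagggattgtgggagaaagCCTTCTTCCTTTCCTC
Rpl35 (chr2:39005120-39005191, minus strand): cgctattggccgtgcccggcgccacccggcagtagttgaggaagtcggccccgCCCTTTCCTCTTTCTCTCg
Rps10 (chr17:27635233-27635304, minus strand): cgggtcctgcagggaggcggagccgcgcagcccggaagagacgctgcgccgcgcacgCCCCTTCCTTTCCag
Rpl32l (chr10:20208379-20208450, plus strand): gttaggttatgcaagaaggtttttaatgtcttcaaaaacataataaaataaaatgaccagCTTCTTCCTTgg
Rps18 (chr17:33955654-33955725, minus strand): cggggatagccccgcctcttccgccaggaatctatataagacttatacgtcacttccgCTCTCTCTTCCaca
Rps6 (chr4:86857356-86857427, minus strand): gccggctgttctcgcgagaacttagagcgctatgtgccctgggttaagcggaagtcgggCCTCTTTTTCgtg
The run of Rpl27a went on for 16 pyrimidines from the annotated start, that of Rpl15 for 13, that of Rpl35 for 11 and those of Rps10 and Rpl32l for 10, while Rps18 and Rps6 had 9. Rpl27a, Rpl15, Rps18 and Rps6 are canonical genes with strong peaks, Rpl35 is the canonical gene with the lowest mean percentile, and Rpl32l is a retrogene of 1 exon with no peak.

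For contrast, 4 genes whose annotated first base is not a pyrimidine, and which therefore carry no capitals, are given in the same way. Rplp0 and Rpsa had strong peaks, Rps4x is X-linked and low, and Rpl10l is the retrogene copy of Rpl10.
Rplp0 (chr5:115559407-115559478, plus strand): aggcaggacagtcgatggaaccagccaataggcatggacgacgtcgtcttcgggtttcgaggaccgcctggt
Rpsa (chr9:120127706-120127777, plus strand): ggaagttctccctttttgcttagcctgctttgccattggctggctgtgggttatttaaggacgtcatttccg
Rps4x (chrX:102189380-102189451, minus strand): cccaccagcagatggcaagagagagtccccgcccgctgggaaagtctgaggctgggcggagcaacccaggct
Rpl10l (chr12:66284390-66284461, minus strand): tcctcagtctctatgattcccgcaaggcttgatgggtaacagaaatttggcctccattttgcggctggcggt
An annotated start can lie a few bases from the base at which most transcripts begin, so a missing tract here is a property of these annotated starts. With the run allowed to begin within 5 bases of the annotated start, an alternative chosen after seeing the data, 26 of 57 canonical promoters (45.6%) had at least 5 pyrimidines, against 26.4% of 16785 other promoters.

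SOX3 peaks lay at the promoters of nearly all ribosomal protein genes. In replicate 1, 86 of the 88 genes had a promoter peak, and in replicate 2, 83 did. The background was 67.7% of the other protein-coding genes in replicate 1 and 59.9% in replicate 2. The share over the 88 genes was 96.0% ± 2.41 (SD, n = 2). In 82 of the 88 genes the promoter peaks of the replicates overlapped, against 54.9% of the other genes. All 77 canonical genes were among the 82.

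A large part of the other genes lacks a CpG-rich promoter, and the share with a peak differed with CpG content. Among the other genes with a CpG-rich promoter (an observed over expected CpG ratio above 0.6 and GC above 50% over 300 bases), 87.8% had overlapping promoter peaks, and among those with a CpG-poor promoter 26.8% did. Of the 57 canonical genes with a promoter sequence, 46 (80.7%) were CpG-rich, against 47.2% of the other genes. The median CpG ratio was 0.903 in the canonical genes and 0.599 in the other genes. The share of canonical genes with overlapping peaks, 100%, therefore stood closer to the share of CpG-rich genes than to that of all genes.

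With a q score above 60 required in both replicates, 77 of the 88 genes and 73 of the 77 canonical genes were left, against 39.3% of the other genes. Among the other genes with a CpG-rich promoter, 69.1% were left. The 4 canonical genes that were lost were Rpl35, Rpl36a, Rpl39 and Rps4x, each through replicate 2.

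**Figure D1:**
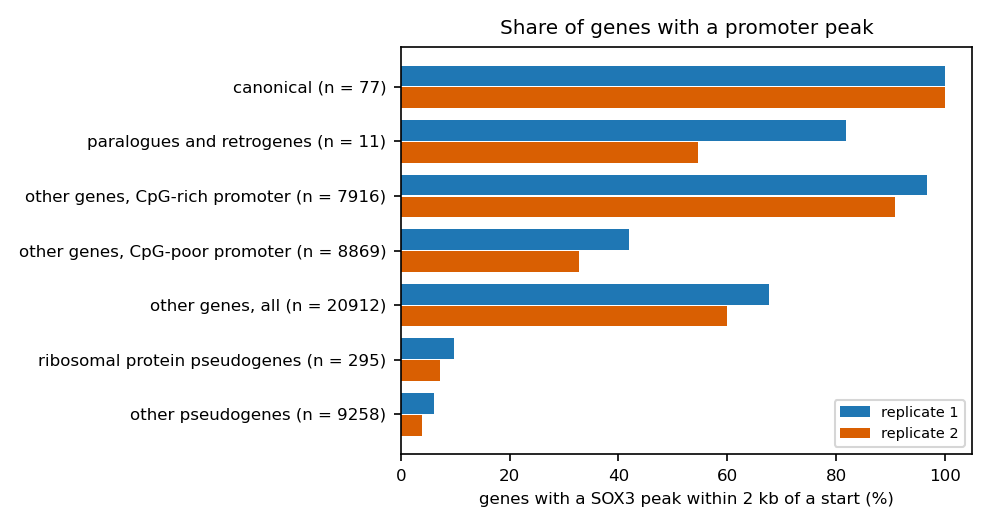
Bars give the percent of genes with a SOX3 peak within 2 kb of a start in replicate 1 (blue) and replicate 2 (orange), with the number of genes of each group in brackets. Canonical ribosomal protein genes are at 100% in both, other genes with a CpG-rich promoter are close to them, and ribosomal protein pseudogenes are at 9.83% and 7.12%.

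The promoter peaks of ribosomal protein genes were also stronger than the median of bound genes. The median q score of the strongest promoter peak was 331 in replicate 1 and 145 in replicate 2, against 169 and 80.0 in the other bound genes. The median log2 ratio was 4.17 and 3.02, against 3.70 and 2.70. The median width was 2052.5 bp and 1516 bp, against 1646 bp and 1331 bp.

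Every one of these medians was higher in the ribosomal protein genes in both replicates. The q ratio of the medians was 1.88 ± 0.101 (SD, n = 2), the difference of the median log2 ratios was 0.39 ± 0.11 (SD, n = 2), and the width ratio was 1.19 ± 0.0763 (SD, n = 2). Against the other genes with a CpG-rich promoter, the q ratio was 1.56 ± 0.0178, the log2 difference 0.29 ± 0.01 and the width ratio 1.11 ± 0.0684 (SD, n = 2 each). All 3 were thus smaller beside CpG-rich genes and stayed above equality in each replicate.

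To set the replicates on 1 scale, each gene was given the percentile of its q score among the other bound protein-coding genes of the same list. The median percentile of the ribosomal protein genes was 83.3 in replicate 1 and 85.0 in replicate 2, a mean of 84.1 ± 1.24 (SD, n = 2). In each replicate 30 genes lay in the highest 10% of the scale, and 7 and 6 lay in the lower 50%. Across the 83 genes with a peak in both, the q scores of the replicates had a Spearman rho of 0.733, and the log2 ratios one of 0.317. For 12079 other genes these were 0.835 and 0.330. The replicates share the annotation and the tissue, and the values are given as a description only.

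**Figure D2:**
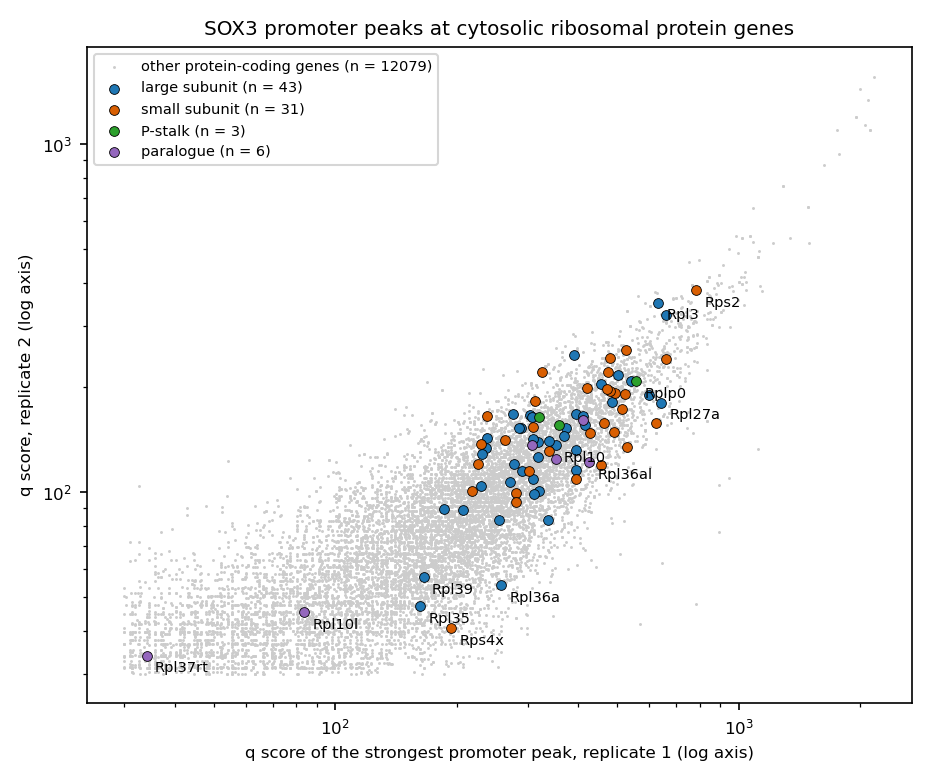
Each point is a gene with a promoter peak in both replicates, at the q score of its strongest peak in replicate 1 (x) and replicate 2 (y), both on log axes. Ribosomal protein genes (coloured by role) sit in the upper part of the cloud of 12079 other genes (grey), with Rps2 highest and Rpl35, Rpl36a, Rpl39, Rps4x, Rpl10l and Rpl37rt below the rest.

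The P-stalk recruits translation factors to the large subunit. Rplp0, which encodes its base, had a peak of q score 556 in replicate 1 and 208 in replicate 2, with log2 ratios of 4.45 and 3.06. Rplp1 had q scores of 320 and 165, and Rplp2 had 358 and 156. Rplp0 was the highest of the 3 in both replicates, and the order of Rplp1 and Rplp2 changed between them.

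Rps2, Rpl13a, Rpl3 and Rps28 were among the 5 genes with the highest mean percentile. Rps2, which encodes the small-subunit protein uS5 near the mRNA entry site, had q scores of 785 and 380 with log2 ratios of 5.32 and 4.37. Its peak was at rank 90 of the whole replicate 1 list and rank 67 of the replicate 2 list. No other ribosomal protein gene ranked as high in either list.

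In replicate 1 the Rps2 peak ran from 24715939 to 24724991 on chromosome 17, over the whole gene (24718121 to 24721927, plus strand) and within reach of the starts of Ndufb10 and Rnf151. In replicate 2 it was 1571 bp wide, covered 41.3% of the gene and was within reach of Rnf151. The score of such a peak cannot be assigned to 1 of the genes it touches.

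Rpl13a encodes a protein also known for a role in translational silencing outside the ribosome. It had q scores of 660 and 322, with log2 ratios of 5.25 and 3.96. Its peak was 11643 bp wide in replicate 1, where it covered the whole gene and more, and 2569 bp wide in replicate 2.

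Rpl3 encodes a protein that reaches toward the peptidyl transferase centre. It had q scores of 630 and 350, with widths of 4573 bp and 2500 bp, and no other protein-coding start in reach. Rps28, a small-subunit gene next to Ndufa7, had 526 and 256.

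Among the large-subunit genes followed for a known role were Rpl5 and Rpl11, whose proteins bind Mdm2 together with 5S rRNA when ribosome assembly fails. Rpl5 had q scores of 307 and 164, at percentiles 79.7 and 90.0. Rpl11 had 271 and 107, at percentiles 73.5 and 68.6. Rpl22, whose paralogue Rpl22l1 is described below, had 208 and 89.1.

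Over all 43 large-subunit genes the median percentile was 81.2 in replicate 1 and 83.6 in replicate 2. Over the 31 small-subunit genes it was 91.9 and 88.5. The small-subunit median was higher in each replicate, and the ranges of the groups overlapped over nearly all their length.

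Rpsa encodes a small-subunit protein also known as a laminin receptor, and had q scores of 480 and 243. Rps6, whose protein is the target of S6 kinase, had 479 and 195. Rps19 and Rps14 are known from Diamond-Blackfan anaemia and 5q- syndrome in humans. Rps19 had 529 and 135, and its replicate 1 peak was 8975 bp wide. Rps14 had 456 and 120. Rps27, the partner of the paralogue Rps27l, had 396 and 109.

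The canonical genes with the lowest mean percentile were, from the lowest, Rpl35, Rps4x, Rpl39, Rpl36a and Rpl7. Rpl35, on chromosome 2, had q scores of 162 and 47.0, at percentiles 47.6 and 21.1, and its log2 ratio in replicate 2, 1.59, was the lowest of any canonical gene. Rpl7, which shares its peak with Rdh10, had 186 and 89.6. Of these low genes, Rps4x, Rpl39 and Rpl36a are X-linked.

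The 4 X-linked genes were Rpl10, Rpl36a, Rpl39 and Rps4x. Rpl10 encodes a protein that completes the large subunit in the cytoplasm, and had q scores of 352 and 137. Rpl36a had 258 and 54.0, Rpl39 had 166 and 56.9, and Rps4x had 194 and 40.7. The X-linked genes had a median percentile of 63.5 in replicate 1 and 29.8 in replicate 2, against 84.3 and 87.1 for the 73 autosomal canonical genes.

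The gap to the autosomal genes was in the q score and the width and not, in replicate 1, in the log2 ratio. The median log2 ratio of the X-linked genes was 4.21 and 2.34, against 4.22 and 3.06 for the autosomal genes, and their median width was 1734.5 bp and 907 bp, against 2311 bp and 1560 bp. The other bound genes of the X chromosome had median percentiles of 32.4 and 29.9, so the X-linked ribosomal protein genes stood above their chromosome in replicate 1 and level with it in replicate 2. In a male tissue the X chromosome is present in 1 copy per diploid cell, and its part in these values was not tested.

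**Figure D3:**
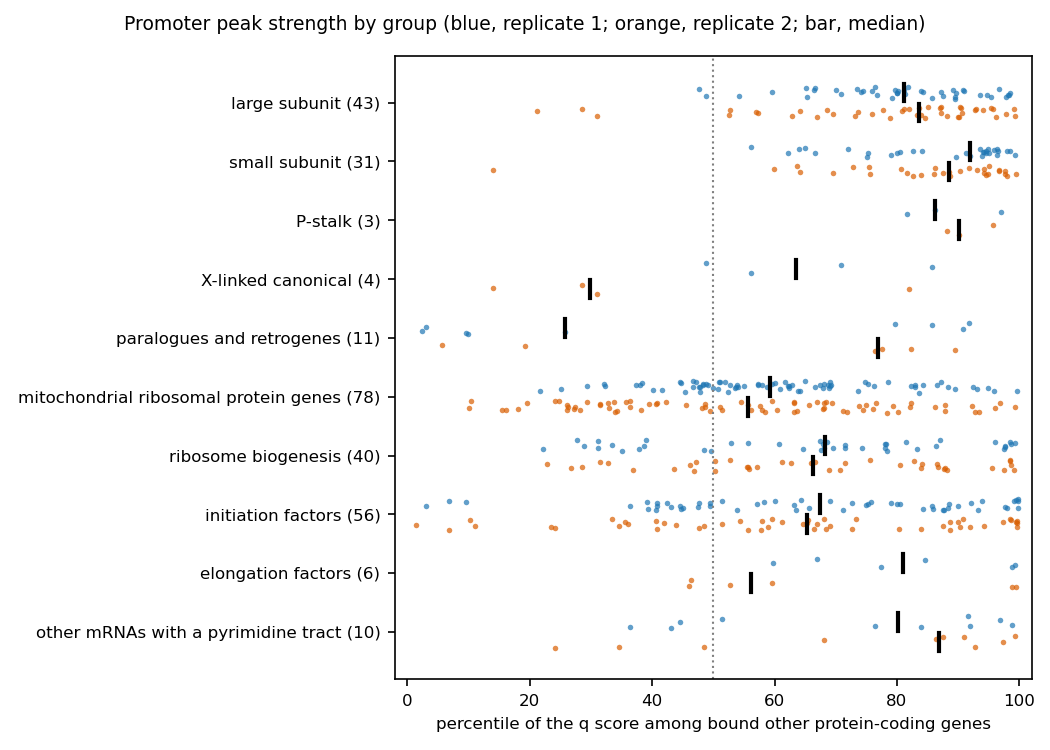
Points are genes at the percentile of their q score among the other bound protein-coding genes of the same list (blue, replicate 1; orange, replicate 2), black bars are medians, and the dotted line is 50. The X-linked genes also stand in the rows of their subunit. The large- and small-subunit genes have medians from 81.2 to 91.9, and the mitochondrial ribosomal protein genes 59.2 and 55.7.

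The paralogues and retrogenes fell apart in their values. Of the 11, 5 (45.5%) had overlapping promoter peaks in both replicates, against 54.9% of the other protein-coding genes. Of these 5, 4 (36.4% of the 11) had a q score above 60 in both, against 39.3%. Rpl7l1, a gene of the L7 family, had q scores of 411 and 162. Rpl36al, the autosomal copy of Rpl36a, had 426 and 122 in a peak it shares with the start of Mgat2. Rpl22l1 had 352 and 125, above those of Rpl22, and Rps27l, a p53-responsive copy of Rps27, had 307 and 137. These 4 lay between percentiles 76.4 and 91.8.

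Rpl10l, a gene of 1 exon on chromosome 12 that is known to stand in for X-linked Rpl10 in male meiosis, had the weakest peak of those that overlapped. Its q scores were 83.9 and 45.1, with log2 ratios of 3.60 and 2.49 and widths of 981 bp and 717 bp. Rpl10 itself, given above, was at more than 3 times these q scores in each replicate.

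The other 6 had no overlapping peaks. Rpl39l, the autosomal copy of Rpl39 with expression in the male germ line, had a peak of q score 44.7 in replicate 1 and none in replicate 2. Rpl3l, a muscle form of Rpl3, had one of 43.3 in replicate 1 and none in replicate 2. Rps27rt had one of 32.8 whose midpoint lay 1778 bp from the start, in replicate 1 alone. Rpl37rt had peaks of 34.1 and 33.9 that lay at different places, and Rpl32l and Rps23rg1 had no promoter peak in either list. The scores of Rpl39l and Rpl3l lay just above the median of the whole replicate 1 list, 41.4, and those of Rps27rt and Rpl37rt lay below the median of their list, which was 39.5 in replicate 2.

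The CpG ratio of the promoter window went from 0.683 to 1.16 in the 4 paralogues with strong peaks. It was 0.333 in Rpl32l, 0.217 in Rps23rg1, 0.0892 in Rpl3l, 0.409 in Rpl37rt and 0.633 in Rps27rt, but 0.836 in Rpl39l and 0.643 in Rpl10l. Over the 63 members with a sequence and a peak in both lists, the mean percentile and the CpG ratio had a Spearman rho of 0.304, given as a description.

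The peaks of the canonical genes lay on the start itself. All 77 covered an annotated TSS in both replicates, against 89.6% and 87.4% of the strongest peaks of the other bound genes. For other bound genes with a CpG-rich promoter the shares were 97.3% and 94.8%, so this position was near what such genes show. The midpoint lay downstream of the nearest TSS in 62 genes in replicate 1 and in 54 in replicate 2. The median reach was 831 bp upstream and 1378 bp downstream in replicate 1, and 679 bp and 816 bp in replicate 2. The peaks thus extended further into the gene than away from it, more so in replicate 1. The median distance from the midpoint to the nearest TSS was 321.5 bp over the 86 bound members in replicate 1 and 124 bp over the 83 in replicate 2. For the other bound genes it was 196 bp and 182.5 bp, so the members were farther in replicate 1 and nearer in replicate 2.

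Ribosomal protein genes are short, with a median length of 3175 bp over the canonical genes, and a peak can span much of one. The median share of the gene body under the peak was 42.3% in replicate 1 and 27.9% in replicate 2. In replicate 1 the peak covered the whole gene in 16 canonical genes, and in replicate 2 in 1.

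Broad peaks were frequent in replicate 1. There, 20 of the 86 bound genes had a strongest peak of 3 kb or more (23.3%), against 11.8% of the other bound genes. In replicate 2, 2 of 83 did (2.41%), among them Rpl19 with 3057 bp, against 4.1% of the other bound genes. The direction relative to the background thus differed between the replicates.

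By mean width, Rpl18 was the widest. Its peak was 15540 bp wide in replicate 1 (45703481 to 45719020 on chromosome 7), reached 14590 bp upstream past Sphk2 and Dbp, and had a q score of 597. In replicate 2 the peak at Rpl18 was 1611 bp wide with a q score of 190. A width of this kind was seen in 1 of the 2 lists and includes neighbouring genes.

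**Figure D4:**
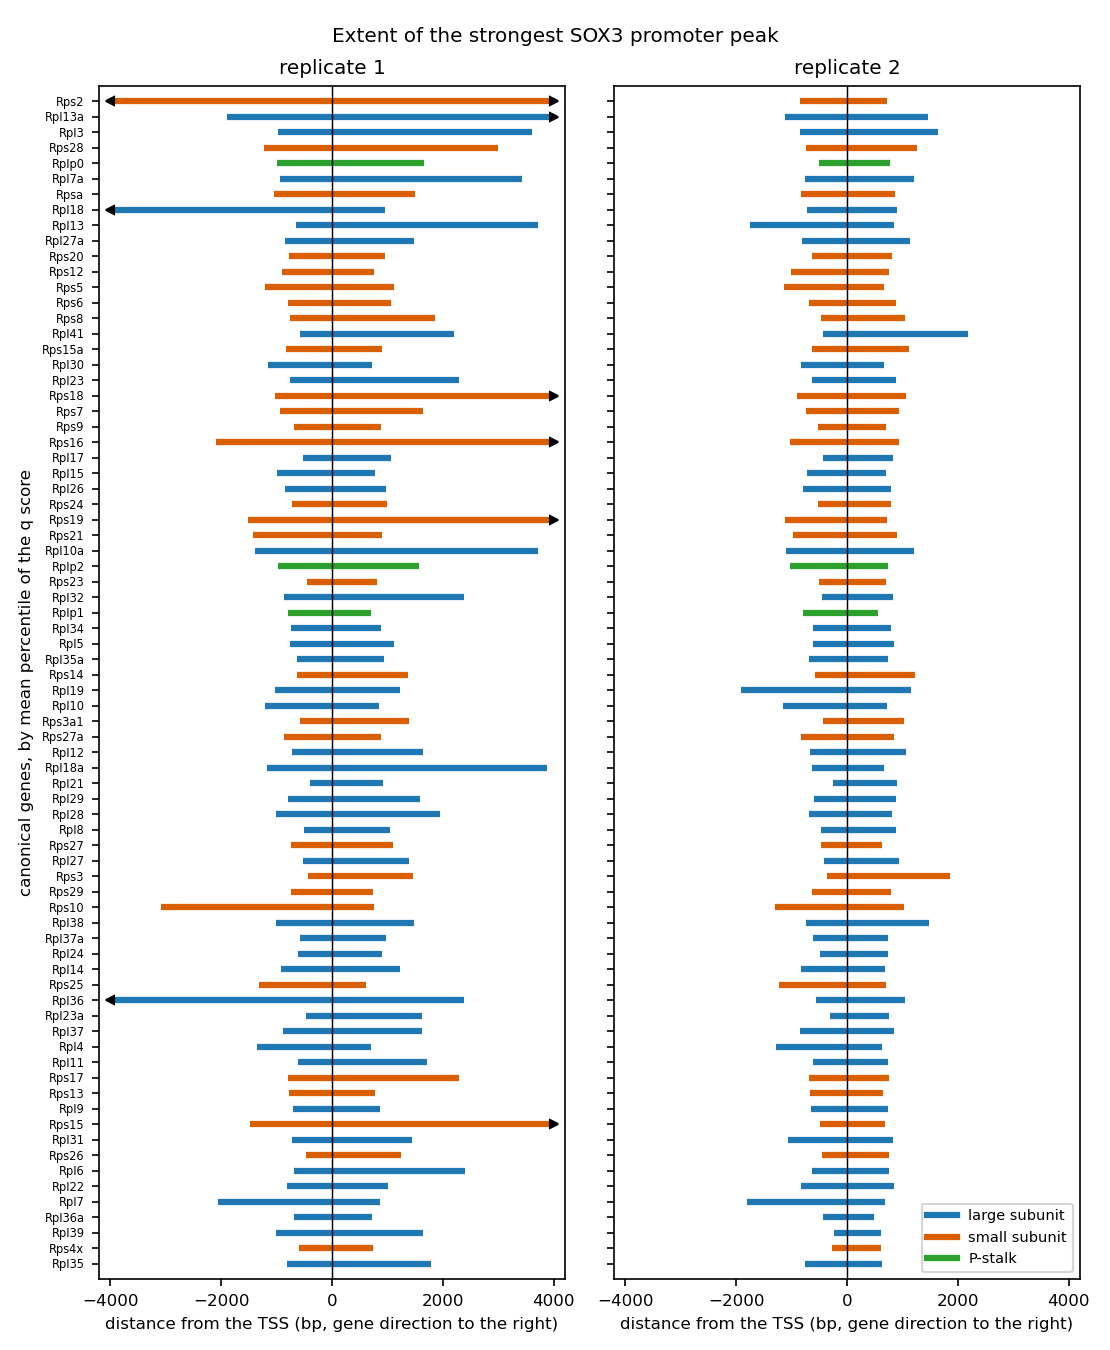
Horizontal lines show the extent of the strongest promoter peak of 76 canonical genes relative to its TSS (x, in bp, with the gene running to the right), ordered by mean percentile of the q score, and arrowheads mark peaks that go beyond 4000 bp. All lines cross 0 in both replicates, and most reach further to the right than to the left in replicate 1.

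In 21 canonical genes the replicate 1 peak was also within reach of the start of another protein-coding gene. Their median percentile was 84.1 in replicate 1 and 88.5 in replicate 2, and that of the other 56 was 83.4 and 86.1. In 30 canonical genes the annotation places 58 snoRNA genes inside the gene. These hosts had median percentiles of 88.2 and 90.2, and the 47 genes without a snoRNA gene had 81.7 and 82.7. The host genes were higher in each replicate, and neither difference was tested.

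The motifs of several transcription factors were counted in the promoter windows, 250 bases before to 50 after the start, on both strands. The SOX motif was searched in a first form, AACAAT, and in a second form, ACAAAG. The first form was in 2 of 57 canonical promoters (3.51%), against 9.26% of all other promoters and 3.97% of the CpG-rich ones. The second form was in 7 of 57 (12.3%), against 16.9% and 10.7%. The canonical shares were below those of all other promoters and near those of CpG-rich promoters.

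The genes with a SOX match in the window were Rps25 with the first form, Rps9 with both, and Rpl22, Rpl27, Rpl35a, Rps15, Rps21 and Rps4x with the second. Rps2, Rpl13a and Rps28, which were among the 5 genes with the highest mean percentile, held neither. The canonical genes with the second form had median percentiles of 79.3 and 77.7, and those without it 85.9 and 87.3. Of the paralogues, Rpl10l held the second form. A match is a run of letters in a window of 300 bases, while the peaks are wider than the window.

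Other motifs stood in a larger share of canonical promoters. The ETS motif CCGGAA was in 30 of 57 (52.6%), against 19.6% of all other promoters and 31.3% of the CpG-rich ones. The YY1 motif CCATNTT was in 29.8%, against 15.3% and 13.7%. The CRE motif TGACGTCA was in 5 of 57 (8.77%), against 2.36% and 3.84%, and the NRF1 motif CATGCGC was in 7 of 57 (12.3%), against 5.09% and 8.55%. These 4 were above both backgrounds, CRE and NRF1 on few genes.

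The SP and KLF motif GGGCGG was in 59.6%, between the 48.1% of all other promoters and the 77.3% of CpG-rich ones. The NFY motif CCAAT was in 31.6%, against 39.5% and 37.3%, and the TATA box TATAAA was in 8.77%, against 13.2% and 4.72%. No motif is contained in another, and matches of different motifs may overlap by some letters.

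The pyrimidine tract, at least 5 pyrimidines from the annotated first base, was in 15 of 57 canonical promoters (26.3%), against 3.72% of all other promoters and 3.42% of the CpG-rich ones. The annotated first base was C in 35.1% of the canonical genes and in 13.7% of the others. Canonical genes with the tract had median percentiles of 89.5 and 88.1, and those without it 80.9 and 84.9. Rpl35, whose run of 11 pyrimidines is printed above, was at 47.6 and 21.1, and Rpl32l, with 10, had no peak.

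**Figure D5:**
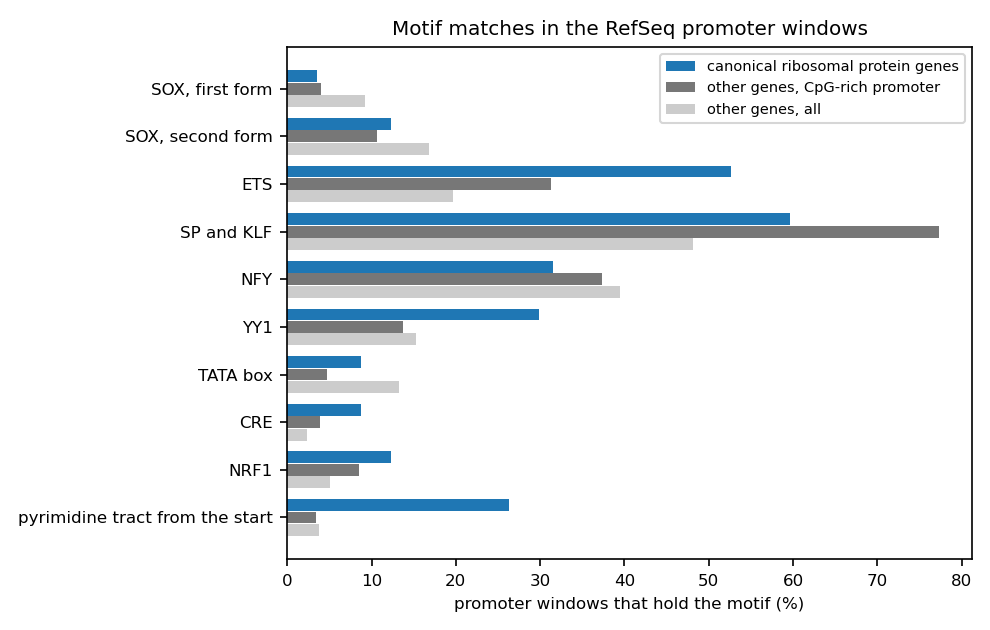
Bars give the percent of RefSeq promoter windows that hold each motif, for 57 canonical ribosomal protein genes (blue), 7916 other genes with a CpG-rich promoter (dark grey) and all 16785 other genes (light grey). ETS, YY1 and the pyrimidine tract stand above both grey bars, and both SOX forms are near the dark grey bar.

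Processed pseudogenes carry the mRNA sequence of these genes without the promoter. Ribosomal protein pseudogenes were taken by symbol from the annotated pseudogenes, and processed ones were not separated from the rest. Copies under any other symbol therefore count among the other pseudogenes. Of the 323 found by symbol, 295 lay more than 5 kb from any protein-coding TSS. A peak within 2 kb of the annotated start was found at 29 of them (9.83%) in replicate 1, against 6.07% of 9258 other pseudogenes at the same distance. In replicate 2 it was 21 (7.12%), against 3.91%. At 9 (3.05%) there was a peak in both replicates and at 6 (2.03%) these peaks overlapped, against 1.78% and 1.46% of the other pseudogenes. A peak found in both lists was thus rare at pseudogenes of either kind. In each replicate, most peaks counted at ribosomal protein pseudogenes lay beside the pseudogene and did not overlap it.

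The median q score of these peaks was 42.2 in replicate 1 and 36.7 in replicate 2, against 338 and 149 at the canonical genes. Rps4l is a transcribed pseudogene in RefSeq and an autosomal copy of Rps4x. Among these pseudogenes it alone had a peak that overlapped the pseudogene body in both replicates, with q scores of 106 and 64.5. Its q score was below that of Rps4x in replicate 1 and above it in replicate 2. A peak of q score 2167 within reach of Rpl31-ps17 was 5592 bp wide, had its midpoint 4022 bp away and did not overlap the pseudogene.

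ChIP-nexus, in which an exonuclease trims the bound DNA toward the protein, gave lists of 111 and 19 regions. No ribosomal protein gene had a region within 2 kb of a start in either list. Among the other protein-coding genes, 38 had one in replicate 1 and 0 in replicate 2. With lists this short, a missing region at the 88 genes was what most genes showed.

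Other genes of translation were looked up by fixed lists. For the counts below, the background of overlapping peaks was 54.9% of the other protein-coding genes and 87.8% of those with a CpG-rich promoter. Fau and Rack1 encode ribosomal proteins that the naming rule leaves out, and both had overlapping peaks. Fau, which encodes S30, had q scores of 278 and 88.2, and Rack1 had 394 and 150. Their percentiles were 74.7 and 56.1 for Fau, and 89.5 and 86.5 for Rack1. Mrpl49, counted below, had the same q score, log2 ratio and width as Fau in each replicate, so the peak may be shared.

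The mitochondrial ribosome is a separate machine with nuclear-encoded proteins. Of 78 mitochondrial ribosomal protein genes, 76 had overlapping peaks, with Mrpl3 and Mrpl36 the exceptions. Their median percentile was 59.2 and 55.7, and their median width 1442 bp and 1213 bp. Their log2 difference to the other bound genes was -0.05 ± 0.22 (SD, n = 2), which is within the spread of the replicates. Nearly all cytosolic and mitochondrial genes thus had a peak, while the median strength of the mitochondrial genes was lower in each replicate. Mrps18b had the highest mean percentile, with q scores of 903 and 330.

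Ribosome biogenesis genes had overlapping peaks in 40 of 40, with median percentiles of 68.3 and 66.3. The highest by mean percentile were Ncl with q scores of 687 and 322, Gnl3 with 670 and 274, and Nop56 with 773 and 238, all nucleolar proteins. Initiation factor genes were taken as every symbol of Eif followed by a digit, which also takes in regulators of the Eif2ak and Eif4ebp families. Of these 56 genes, 50 (89.3%) had overlapping peaks, near the share of CpG-rich genes, with median percentiles of 67.4 and 65.2. Eif4a2 (1039 and 401), Eif4g2 (1028 and 414) and Eif1 (1011 and 414) had higher q scores than any ribosomal protein gene.

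Elongation factor genes had overlapping peaks in 6 of 6, with median percentiles of 81.0 and 56.2. Eef1a1 had q scores of 778 and 374 and Eef2 had 711 and 299, and the other 4 had lower percentiles in replicate 2 than in replicate 1. Of 10 other mRNAs known for a pyrimidine tract, all had overlapping peaks, with median percentiles of 80.2 and 86.9. Tpt1 had the highest, with q scores of 699 and 327. Eif3e, Eif3f, Eif3h and Eif4b are counted in both this list and that of the initiation factors.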

How the data were processed

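SOX3 ChIP-seq (2 replicates) and SOX3 ChIP-nexus (2 replicates) of P7 mouse testis were analysed, and 15 further samples in the labels were not analysed here. Per the study's methods, the authors aligned reads to mm10 with Novoalign, placing reads that fit several sites at random, removed duplicates with Picard and called ChIP-seq peaks per replicate with USeq. No column names came with the deposited ChIP-seq lists. From their values and the layout of the caller, the columns were read as a p score, a q score (a log-scaled false discovery rate, above 30) and a log2 ratio normalised to input by the authors. The deposited ChIP-nexus lists, in the format of MACS2 2.1.1, give a fold ratio and −log10 p- and q-values, of which the positions alone were used.

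Start sites were those of 45756 curated RefSeq transcripts of 26182 genes on GRCm38, the assembly of mm10. Peaks within 2 kb of a start were assigned with Python 3.11.15 and pandas 2.3.3, and the assignment was tested on simulated data and against bedtools 2.31.1. No multiple-mapping filter could be applied to the lists, and ribosomal protein genes have many near-identical copies, so reads of exons may be split among them. The q score is coarse, since 98.8% and 98.7% of peaks share their value with another peak. Coordinates are 1-based.

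The gene set and the lists were chosen with earlier results of these data known. Genes named in the text were those without overlapping promoter peaks, the 5 highest and 5 lowest by mean percentile, the 2 widest, genes listed for their role and up to 3 of each other list. Genes chosen after their values were seen were those singled out for a tract, a SOX match, a broad peak, a low percentile (Rpl7) or a pseudogene peak, the paralogues Rpl7l1, Rps27l and Rpl22l1 where not already listed, and the markers. Alternatives changed the q score, the window, the annotation, the overlap, the choice of peak, the background and the members. Peaks tell nothing of read depth, and the number of replicates limits the precision. Single values of some genes are not reported here, while counts and medians include them.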

Additional observations from a re-analysis of the deposited data

How the results depend on the processing

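No paired analysis was possible because the results come from no test and the ChIP-seq libraries form 1 group. Of 55 alternative values of the summary results, 44 moved by less than the spread between replicates, or for the count by less than 1.5 times, and none changed direction. Leaving out 1 of the 2 replicates always moves a mean by less than that spread. The values without a replicate therefore had to be among the 44 and say nothing of stability. With peaks of a q score above 60, the share of genes with a promoter peak was 90.3%, the median percentile 80.6, the log2 difference 0.25, the width ratio 1.11 and the share of pseudogenes with a peak 2.03%. With a window of 1 kb that share was 4.41%, and with 5 kb it was 14.2% and the median percentile 85.5. Against CpG-rich genes the median percentile was 79.3 and the width ratio 1.11. For canonical genes alone, the share with a promoter peak was 100%. Leaving out each replicate in turn gave shares of 94.3% to 97.7%, median percentiles of 83.3 to 85.0, log2 differences of 0.32 to 0.47, width ratios of 1.14 to 1.25, pseudogene shares of 7.12% to 9.83% and distances of 124 to 321.5 bp. The count of 82 genes with overlapping peaks was 77 to 82 under the other q score, windows, annotation and overlap. Leaving out the X-linked members, or keeping the canonical genes alone for the other measures, both chosen after seeing the data, moved no measure beyond the spread. Of 88 genes, 9 lost a replicate above a q score of 60 and 2 lost one at 1 kb, while 2 gained one at 5 kb. The lists give no depth, so a missing peak cannot be read as missing binding.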
